A study of Mus musculus with 12 samples.

Results

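The thick filaments of the sarcomere are cross-linked at their centre, the M-band, by myomesins, and carry on either side a set of stripes made of the myosin binding proteins. The genes described here are the 9 that encode these proteins in mouse or are close relatives of them, chosen by name: the myomesins *Myom1*, *Myom2* and *Myom3*, the forms of myosin binding protein C *Mybpc1*, *Mybpc2* and *Mybpc3*, the shorter relatives *Mybph* and *Mybphl*, and *Obsl1*, which encodes obscurin-like 1. They are 9 of the 55450 genes in the table, and all 9 passed the filter on low counts that left 19276 genes to test. The choice was made knowing that *Mybph* falls after 2 wks. For this reason *Mybph* is described without a test at any age, and the change from 2 to 7 wks is described without a p-value for every one of the 9 genes, with counts past the threshold given there only as a description. RNA came from the tibialis anterior (TA), a shin muscle, of wild-type (WT) mice. Their background is 129Pas in the labels and 129SvPas in the study's methods. The labels name no treatment. As the study states it there were 4 mice per age, E18.5 (late gestation), 2 wks and 7 wks, with 1 library from each mouse. The values start from the deposited counts of reads per gene. CPM values relate the reads of a gene to the size of its library, scaled by TMM, which takes the bulk of genes as not differing between libraries. Differences are log2 fold changes with their SE (standard error), and the p printed beside them is that of edgeR's quasi-likelihood test, adjusted by Benjamini-Hochberg over the 19276 genes and read against a threshold of 0.05.

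As background, myomesin 1 is found in all striated muscle, M-protein (the product of *Myom2*) is typical of fast fibres and heart, and myomesin 3 of fibres intermediate between slow and fast. Myosin binding protein C has a slow skeletal form (*Mybpc1*, also made in many fast fibres), a fast skeletal form (*Mybpc2*) and a cardiac form (*Mybpc3*). It tunes how myosin heads reach the thin filament. Obscurin-like 1 links titin to myomesin at the M-band and, in many other cells, is part of the 3M complex with CUL7 and CCDC8.

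The start regions of *Mybpc1*, *Mybpc2* and *Mybph* are shown because *Mybpc2* had the largest rise of the 9 genes, *Mybpc1* is the form it is set against, and *Mybph* had a course of its own. Motifs were searched in the 250 bases before the transcript start in the RefSeq promoter table (build GRCm38.p6). Printed are those of the 250 that lie outside the annotated gene, 173 for *Mybpc1*, 204 for *Mybpc2* and 220 for *Mybph*, 5′ to 3′ on the gene's strand. The table has an entry for 8 of the 9 genes and none for *Myom2*. Capitals mark the E-box CANNTG, the general motif bound by myogenic factors such as MyoD and by many other proteins, searched on both strands, on which it reads alike.
*Mybpc1* (chr10:88605230-88605402, minus strand): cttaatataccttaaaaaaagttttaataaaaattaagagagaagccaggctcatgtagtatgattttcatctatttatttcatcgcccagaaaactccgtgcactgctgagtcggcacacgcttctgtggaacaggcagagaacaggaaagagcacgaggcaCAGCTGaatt
*Mybpc2* (chr7:44524716-44524919, minus strand): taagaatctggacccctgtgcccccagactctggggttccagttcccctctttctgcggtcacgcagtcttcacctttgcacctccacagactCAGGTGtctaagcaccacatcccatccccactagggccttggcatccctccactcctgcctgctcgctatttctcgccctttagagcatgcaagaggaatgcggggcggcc
*Mybph* (chr1:134193198-134193417, plus strand): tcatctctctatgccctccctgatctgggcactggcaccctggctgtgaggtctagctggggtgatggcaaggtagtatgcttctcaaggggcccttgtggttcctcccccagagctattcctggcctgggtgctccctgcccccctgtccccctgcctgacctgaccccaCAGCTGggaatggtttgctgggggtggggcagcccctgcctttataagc
The windows of *Mybpc2* and *Mybph* hold 1 E-box each, and that of *Mybpc1* holds 2, of which 1 lies in the printed stretch. At least 1 E-box is present in 66.2% of the 32851 promoters of the table and at least 2 in 31.8%, so a count of 1 or 2 is common. The window of *Obsl1* holds 4 E-boxes, a number reached by 3.84% of promoters, those of *Myom1* and *Mybpc3* hold 3 (12.2% hold as many), that of *Myom3* 1 and that of *Mybphl* 0. The windows of *Myom1* (chr17:71019307-71019556) and *Myom3* (chr4:135759465-135759714) lie wholly inside the annotated gene, before a transcript start within it. A match to the MEF2 motif, the A/T-rich motif of MEF2 factors, lies in the windows of *Myom3* and *Mybpc3*, against 2.92% of all promoters, and in *Mybpc3* it lies directly beside an E-box.

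The libraries held 63018968 to 123449246 reads counted on genes. The summed level of 9 fast fibre genes was 9277 to 14771 CPM at E18.5, between 144281 and 160994 CPM at 2 wks, and between 172505 and 189717 CPM at 7 wks, while that of 8 slow fibre genes was 1748 to 2746, 343 to 525 and 196 to 294 CPM. Of the slow genes *Casq2* was the largest at each age, with means of 1373, 142 and 90.4 CPM. *Myl3* alone had a higher mean at both later ages, with 21.2, 52.2 and 38.7 CPM. The summed level of 6 fibroblast genes was 5963 to 12271 CPM at E18.5, between 4466 and 6128 CPM at 2 wks, and between 971 and 4080 CPM at 7 wks. Some libraries stood apart in other lists, as 4 adipocyte genes summed to 229, 176, 1867 and 2635 CPM in the E18.5 mice 1 to 4, and 5 nerve genes to 440 CPM in the 2-wk-old mouse 1 against 82.4 to 157 CPM in mice 2 to 4. The part of these cells in the results below was not tested. In bulk RNA, fewer cells of a type and less RNA per cell cannot be told apart. The 2-wk-old mouse 4 stood apart in the fast myosin gene *Myh2*, with 4974 CPM where the other 3 of its age had 690.5 to 936, and values of the genes below are given without a mouse wherever leaving it out changed a call of one of the 9 against E18.5. Scaling mattered, since with libraries scaled to their total count the median over all tested genes was a log2 fold change of -1.02 between E18.5 and 2 wks and of -1.37 between E18.5 and 7 wks, against -0.092 and -0.088 with TMM.

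**Figure D1:**
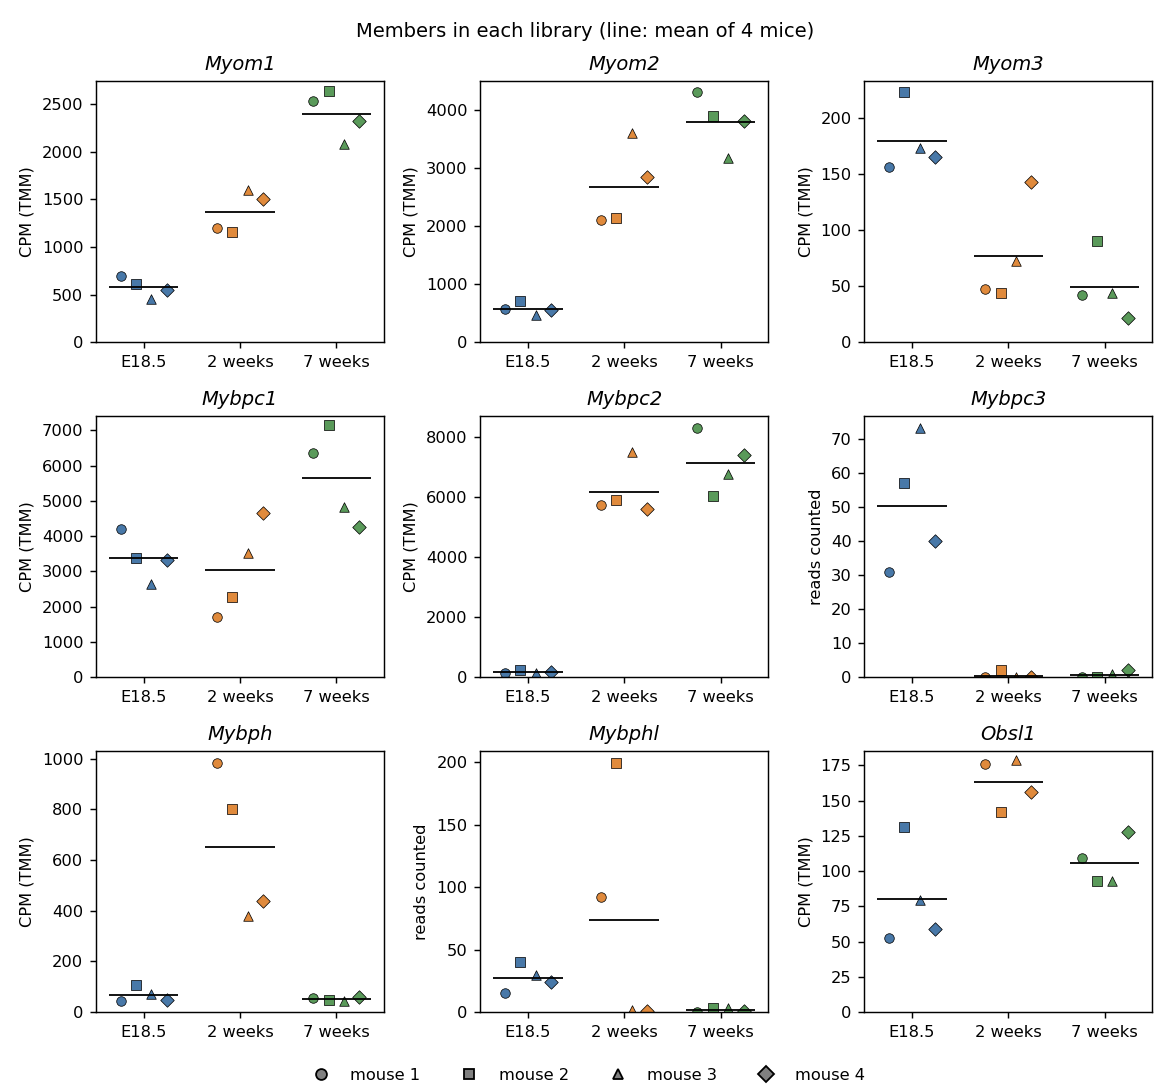
Level of each gene in each of the 12 libraries, in CPM scaled by TMM on a linear axis, or in reads counted for *Mybpc3* and *Mybphl*, with 1 symbol per mouse and a line at the mean of 4 mice. *Myom1* and *Myom2* are higher at 2 and 7 wks than at E18.5 in every mouse, *Mybpc2* goes from 171 to 6176 CPM on average by 2 wks, and *Mybph* is high at 2 wks alone.

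The fast form of myosin binding protein C had the largest rise of the 9 genes. *Mybpc2* (ENSMUSG00000038670, chr7:44501699-44524715 in GRCm38.p6) was at 148, 233, 127 and 176 CPM in the E18.5 mice 1 to 4, at 5720, 5882, 7489 and 5614 CPM at 2 wks, and at 8288, 6017, 6763 and 7408 CPM at 7 wks. The ranges before and after birth did not overlap, and those of 2 and 7 wks did. From E18.5 to 2 wks it rose 36.1-fold (log2 fold change 5.18, SE 0.26, edgeR adjusted p = 7.12e-09), and from E18.5 to 7 wks 41.7-fold (log2 fold change 5.38, SE 0.26, edgeR adjusted p = 2.66e-09). From 2 to 7 wks the mean went from 6176 ± 882 to 7119 ± 964 CPM (SD, n = 4), a log2 fold change of 0.20 with a SE of 0.22. With total counts this last value was -0.14, and the log2 fold changes against E18.5 were 4.25 (SE 0.23) at 2 wks and 4.11 (SE 0.23) at 7 wks, both still called.

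The slow form was abundant at all ages. *Mybpc1* (ENSMUSG00000020061, chr10:88518279-88605229) was at 4197, 3389, 2639 and 3316 CPM at E18.5, at 1712, 2273, 3535 and 4661 CPM at 2 wks and at 6355, 7137, 4834 and 4256 CPM at 7 wks. The 2-wk-old mice spread around the range of E18.5, with mice 1 and 2 below it and mouse 4 above it. The difference from E18.5 to 2 wks was within the spread between mice (log2 fold change -0.15, SE 0.29, edgeR adjusted p = 0.664). At 7 wks every mouse was above every E18.5 mouse, and the rise was 1.67-fold (log2 fold change 0.74, SE 0.30, edgeR adjusted p = 0.0376). This rise was close to the threshold and rested on the scaling. With total counts the 7-wk-old mice had 2943 to 4930 CPM against 4679 to 6797 at E18.5, a log2 fold change of -0.53 (edgeR adjusted p = 0.0749), and from E18.5 to 2 wks *Mybpc1* then fell by 1.11 on the log2 scale (edgeR adjusted p = 0.00159). The rise at 7 wks also missed the threshold with upper-quartile scaling (log2 fold change 0.49, edgeR adjusted p = 0.142). It missed it with no filter (edgeR adjusted p = 0.0515) or a stricter filter (edgeR adjusted p = 0.102). Leaving out E18.5 mouse 2, 3 or 4 or 7-wk-old mouse 1 or 2 had the same outcome (edgeR adjusted p = 0.0598 to 0.103).

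A ratio of a pair of genes within a library does not depend on how libraries are scaled. Per kb of annotated exons, the ratio of *Mybpc2* to *Mybpc1* was 0.047, 0.091, 0.064 and 0.070 in the E18.5 mice, 4.44, 3.44, 2.81 and 1.60 in the 2-wk-old mice and 1.73, 1.12, 1.86 and 2.31 in the 7-wk-old mice. So the slow form exceeded the fast one in each fetal mouse and the fast form exceeded the slow one in each mouse after birth. The log2 ratio was 5.44 higher at 2 wks than at E18.5 and 4.68 higher at 7 wks than at E18.5 (two-sided exact permutation tests of 4 mice against 4, p = 0.029 for each and also after Benjamini-Hochberg adjustment over 8 ratio tests, the smallest p that this design allows). Among the 2-wk-old mice the ratio was lowest in mouse 4, which also had the highest *Mybpc1*, *Myh2* and *Myh1* levels of that age. From 2 to 7 wks the mean log2 ratio went from 1.52 ± 0.63 to 0.76 ± 0.44 (SD, n = 4), and 3 of 16 pairs of mice had the higher ratio at 7 wks.

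The cardiac form was close to absent. *Mybpc3* (ENSMUSG00000002100, chr2:91118114-91136516) had 31, 57, 73 and 40 reads in the E18.5 libraries, 0, 2, 0 and 0 at 2 wks and 0, 0, 1 and 2 at 7 wks. All fetal libraries lay above all later ones, although the fetal level was only 0.20 to 0.36 CPM. Over the pooled libraries of an age, relative to the TMM-scaled library sizes, the level at E18.5 was 42.6 times that at 2 wks (95% exact interval 11.6 to 354) and 22.3 times that at 7 wks (7.51 to 109), intervals that cover counting error only. The gene passed the filter on low counts only through the age at which it was high, so no test is given for it. Of 6 heart genes, *Nppa*, *Myl7* and *Nkx2-5* had too few counts to be tested. The summed level of the 6 was 10.03 to 25.9 CPM at E18.5, then 8.14 to 20.4 CPM, and by 7 wks 4.96 to 10.5 CPM. Most of the sum was *Myh6*, with means of 12.6, 11.1 and 6.30 CPM at the 3 ages. *Tnni3* had means of 0.74, 1.35 and 0.52 CPM, and *Ryr2* of 1.29, 0.41 and 0.16 CPM.

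**Figure D2:**
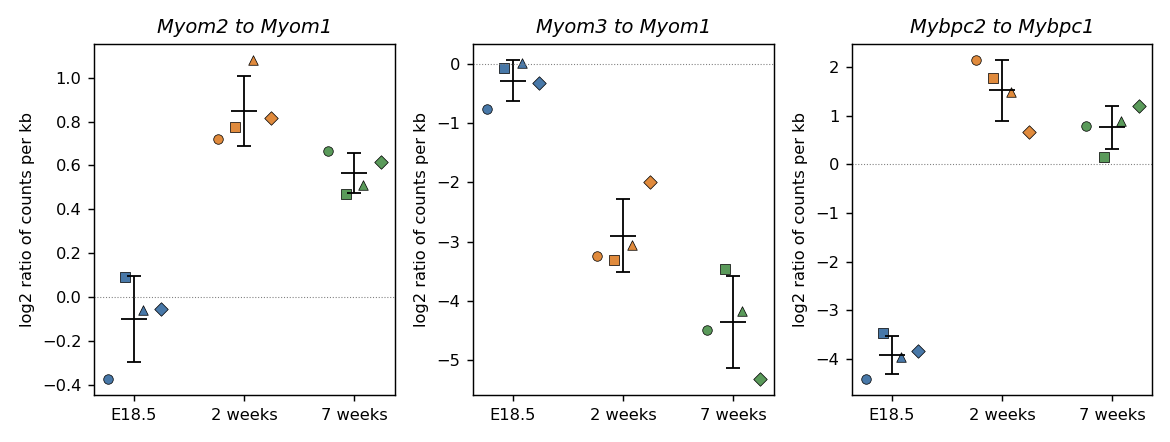
Log2 ratio of counts per kb of annotated exons between genes of a family, by age, with 1 symbol per mouse and the mean with its SD (n = 4). *Mybpc2* to *Mybpc1* is below 0 in all E18.5 mice and above 0 in all later mice, *Myom2* to *Myom1* is higher and *Myom3* to *Myom1* lower after birth, without overlap with E18.5.

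Of the myomesin genes, those for myomesin 1 and M-protein rose and that for myomesin 3 fell. *Myom1* (ENSMUSG00000024049, chr17:71003332-71126856) was at 698, 617, 454 and 546 CPM at E18.5, at 1194, 1162, 1592 and 1507 CPM at 2 wks and at 2531, 2631, 2077 and 2318 CPM at 7 wks. No library of an age overlapped with those of another age. It rose 2.36-fold to 2 wks (log2 fold change 1.24, SE 0.19, edgeR adjusted p = 5.98e-05) and 4.13-fold to 7 wks (log2 fold change 2.05, SE 0.19, edgeR adjusted p = 4.88e-07). With total counts the log2 fold change to 2 wks was 0.30, which missed the threshold (edgeR adjusted p = 0.109). Between 2 and 7 wks the log2 fold change was 0.81 (SE 0.18).

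*Myom2* (ENSMUSG00000031461, chr8:15057653-15133420), which encodes M-protein, was at 578, 706, 468 and 563 CPM at E18.5, at 2109, 2135, 3612 and 2845 CPM at 2 wks and at 4311, 3908, 3174 and 3809 CPM at 7 wks. All mice after birth lay above all fetal mice, and the highest 2-wk-old mouse, mouse 3, lay above the lowest 7-wk-old one. The rise was 4.62-fold to 2 wks (log2 fold change 2.21, SE 0.22, edgeR adjusted p = 2.23e-06) and 6.57-fold to 7 wks (log2 fold change 2.72, SE 0.23, edgeR adjusted p = 1.86e-07). Between 2 and 7 wks the log2 fold change was 0.51 (SE 0.21), or 0.18 with total counts, which gave 1.27 (SE 0.19) and 1.44 (SE 0.19) against E18.5, both still called. Relative to *Myom1* in the same library, *Myom2* rose 1.93-fold to 2 wks and 1.58-fold to 7 wks (exact permutation tests of the log2 ratio, two-sided, adjusted p = 0.029 for each). The ratio of *Myom2* to *Myom1* per kb was 0.77 to 1.07 at E18.5, 1.65 to 2.12 in the 2-wk-old mice and 1.39 to 1.59 in the 7-wk-old mice, so each 7-wk-old mouse lay below each 2-wk-old mouse. That last order is a description without a test.

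*Myom3* (ENSMUSG00000037139, chr4:135758800-135815571) was at 156, 223, 173 and 165 CPM at E18.5, at 47.7, 44.0, 72.4 and 143 CPM at 2 wks and at 42.3, 90.6, 43.7 and 21.9 CPM at 7 wks. All later mice lay below all fetal mice, and the 2-wk-old mouse 4 was well above the others of its age. *Myom3* fell by 1.23 on the log2 scale to 2 wks (SE 0.41, edgeR adjusted p = 0.0168) and fell by 1.85 to 7 wks (SE 0.42, edgeR adjusted p = 0.00117). The fall to 2 wks missed the threshold without 2-wk-old mouse 1 (log2 fold change -1.03, edgeR adjusted p = 0.0538) or mouse 2 (-1.02, edgeR adjusted p = 0.0531). Without mouse 4, whose level was the nearest to the fetal range, it was -1.70. The log2 ratio to *Myom1*, which does not depend on scaling, fell by 2.62 to 2 wks and fell by 4.08 to 7 wks (exact permutation tests, two-sided, adjusted p = 0.029 for each). The 2-wk-old mouse 4 with the highest *Myom3* of its age was the one with the high *Myh2* level given above, and at 7 wks mouse 2 had the highest levels of both *Myom3* and *Myh2* (4456 CPM against 1926 to 3397). The part of *Myh2* in the *Myom3* level was not tested.

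Compared per kb of annotated exons, *Mybpc1* was the most abundant of the 9 genes at E18.5, with 439.7 ± 82.8 CPM per kb (SD, n = 4). *Myom1* (36.1 ± 6.48), *Myom2* (33.6 ± 5.69), *Myom3* (29.6 ± 4.92) and *Mybpc2* (29.5 ± 7.88) followed at levels whose ranges overlapped. *Mybph* (12.1 ± 5.21) and *Obsl1* (8.70 ± 3.86) lay lower, again with overlapping ranges. At 2 wks *Mybpc2* led with 1065 ± 152 CPM per kb, and was followed by *Mybpc1* (395.5 ± 171), *Myom2* (156 ± 41.4), *Mybph* (118 ± 52.8), *Myom1* (85.0 ± 13.6), *Obsl1* (17.6 ± 1.87) and *Myom3* (12.7 ± 7.56). Of these neighbours, *Mybpc2* did not overlap with *Mybpc1*, nor *Mybpc1* with *Myom2*, while the ranges of *Myom2* and *Mybph*, of *Mybph* and *Myom1* and of *Obsl1* and *Myom3* overlapped. At 7 wks the order was *Mybpc2* (1228 ± 166), *Mybpc1* (733 ± 173), *Myom2* (221 ± 27.4), *Myom1* (149 ± 15.3), *Obsl1* (11.4 ± 1.81), *Mybph* (9.49 ± 1.47) and *Myom3* (8.21 ± 4.80), and the ranges of the last 3 overlapped. Annotated exons of *Myom1* and *Myom2* sum to 16.04 and 17.2 kb, against 5.92 and 7.44 kb in their longest coding transcripts. With the coding transcript as the length, *Myom1* and *Myom2* came to 97.7 ± 17.5 and 77.8 ± 13.1 CPM per kb at E18.5, above *Myom3* (32.1 ± 5.33) in every mouse, and the mean of *Mybpc2* (44.6 ± 11.9) lay between them and *Myom3*, though its mice overlapped with those of *Myom3*. The order at 2 wks also moved with the length. Per kb of coding transcript the mean of *Myom1* (230 ± 36.8) lay above that of *Mybph* (137 ± 61.5), with overlap between mice, and the range of *Mybpc1*, 312 to 851 CPM per kb, overlapped with that of *Myom2*, 283 to 485.

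Counted per kb of the longest coding transcript, *Mybpc1* gave 91.2 ± 2.46% of the RNA of the 5 myosin binding protein genes at E18.5, 23.6 ± 8.55% in the 2-wk-old mice and 35.4 ± 7.03% in the 7-wk-old mice (SD, n = 4). *Mybpc2* gave 6.65 ± 1.61%, 70.1 ± 6.20% and 64.2 ± 6.98%, and *Mybph* 1.098 to 3.18%, 2.98 to 10.3% and 0.34 to 0.47%. Of the myomesin RNA, *Myom3* made up 15.6 ± 2.44% at E18.5, 2.22 ± 1.09% in the 2-wk-old mice and 0.96 ± 0.51% in the 7-wk-old mice, *Myom2* 37.4 ± 2.12%, 59.2 ± 2.73% and 55.3 ± 1.78%, and *Myom1* 47.0 ± 4.03%, 38.6 ± 2.55% and 43.8 ± 1.36%. These shares are within a library and do not move with its scaling, but they do move with the gene length. Per kb of annotated exons *Myom3* made up 29.9 ± 3.84%, 4.87 ± 2.31% and 2.15 ± 1.15% at the 3 ages.

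**Figure D3:**
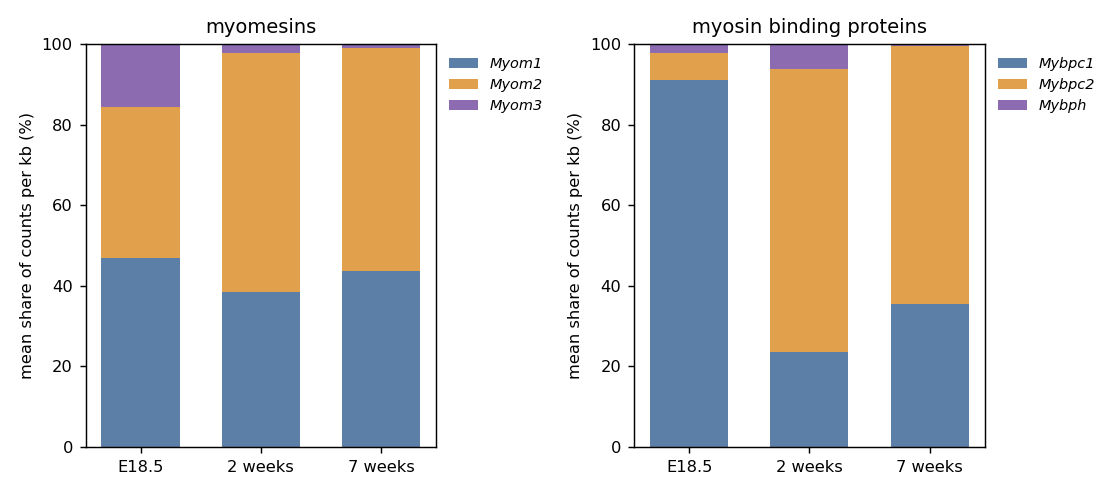
Mean share of each gene in the counts per kb of its family (4 mice per age, longest coding transcript as length, stacked bars from 0 to 100%). *Mybpc1* takes 91.2% at E18.5 and *Mybpc2* 70.1% at 2 wks, and the share of *Myom3* goes from 15.6% to 2.22% and 0.96%; *Mybpc3* and *Mybphl* are too low to be drawn.

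*Mybph* (ENSMUSG00000042451, chr1:134193418-134201237) encodes myosin binding protein H, a short relative of myosin binding protein C that lacks much of its N-terminal part. It was at 42.3, 106, 71.6 and 48.4 CPM at E18.5, at 984, 801, 378 and 437 CPM at 2 wks and at 57.8, 46.7, 44.3 and 60.7 CPM at 7 wks. Every 2-wk-old mouse lay above every mouse of the other ages, and with TMM the ranges of E18.5 and 7 wks overlapped. The mean was 67.0 ± 28.7 CPM at E18.5, 650.3 ± 291 in the 2-wk-old mice and 52.4 ± 8.12 in the 7-wk-old mice (SD, n = 4), which is 9.71 times higher at 2 wks than at E18.5 and 12.4 times higher than at 7 wks in the fitted values (log2 fold changes 3.28 and -3.63, SEs 0.35 and 0.36). With total counts the means were 112, 584 and 36.04 CPM, so the 2-wk-old level was the highest with either scaling. With total counts the fetal mice, at 68.4 to 174 CPM, did not overlap with the 7-wk-old mice, at 29.5 to 42.0 CPM, with a log2 fold change between them of -1.64 (SE 0.36) in place of -0.35 (SE 0.32). Since this course led to the choice of the gene, no test is given.

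The 2-wk-old mice were not alike in *Mybph*, and mice 1 and 2 lay above mice 3 and 4. In the same mice 1 to 4, *Myog*, which encodes the myogenic factor myogenin, was at 91.5, 68.6, 38.0 and 35.3 CPM, and the summed level of 4 satellite cell and myoblast genes (*Pax7*, *Myf5*, *Myod1* and *Myog*) at 132, 111, 74.1 and 65.2 CPM. Most of that difference was *Myog* itself, since the other 3 genes summed to 40.8, 41.9, 36.1 and 29.9 CPM. The adult fast myosin gene *Myh1* was at 4993, 5651, 12407 and 24693 CPM and the perinatal gene *Myh8* at 43.7, 25.9, 20.4 and 32.7 CPM. Red blood cell genes summed to 476, 755, 145 and 148 CPM. The part of any of these in the *Mybph* level was not tested. At 7 wks *Myog* was at 6.08 to 8.17 CPM and at E18.5 at 63.3 to 119 CPM, so its ranges at E18.5 and 2 wks overlapped. The gene with the course most like that of *Mybph* over the 12 libraries was *Zfp385a*, with a root mean square difference of 0.39 between centred log2 CPM values, against a median of 1.77 over the 8802 genes compared. *Zfp385a* was at 6.28 ± 3.56 CPM at E18.5, 44.7 ± 4.88 in the 2-wk-old mice and 4.11 ± 0.51 in the 7-wk-old mice (SD, n = 4). *Col4a1* and *Thy1* came next at a distance of 0.89 each. Annotated exons of *Mybph* share 3361 bases with those of *Adora1* on the other strand, and whether the counting used strand is not given in the sources used here. *Adora1* had 110 to 1695 reads per library at E18.5, 130 to 181 in the 2-wk-old mice and 20 to 41 in the 7-wk-old mice, against 2882 to 77763 on *Mybph*. These counts do not show how many reads fell in the shared bases, and the effect of the overlap on the *Mybph* level was not tested.

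*Mybphl* (ENSMUSG00000068745, chr3:108364911-108380057), a relative of *Mybph* known mainly from the heart, was near the limit of detection but split the 2-wk-old mice. It had 15, 40, 30 and 24 reads at E18.5, 92, 199, 2 and 1 reads at 2 wks and 0, 3, 3 and 1 reads at 7 wks. Mice 1 and 2 of the 2-wk-old group were above all fetal mice and mice 3 and 4 below all of them. The difference from E18.5 to 2 wks passed the threshold (log2 fold change 2.59, SE 0.97, edgeR adjusted p = 0.0302), yet only 8 of 16 pairs of mice had the higher level at 2 wks. Without 2-wk-old mouse 2 the log2 fold change was 1.78 (edgeR adjusted p = 0.138) and without mouse 1 it was 2.27 (edgeR adjusted p = 0.0741). Without E18.5 mouse 1, 3 or 4 it was 2.45 to 2.57 and also past the threshold no longer. With DESeq2 (its own adjusted p = 0.0573), with total counts (edgeR adjusted p = 0.114), with the replicate block (edgeR adjusted p = 0.214), with the GC trend removed (edgeR adjusted p = 0.0527) and with only the 8 libraries compared (edgeR adjusted p = 0.0561) the call was lost. At 7 wks every mouse was below every fetal mouse. The pooled level at E18.5 was 5.18 times that at 7 wks (95% exact interval 2.43 to 13.2, counting error only). The fitted log2 fold change was -2.34 with a SE of 1.36. Of these 2 ages only E18.5 had enough reads for the filter on low counts, so no test of this difference is given. The mice 1 and 2 that were high in *Mybphl* are those that were high in *Mybph*. The heart gene *Tnni3* was at 1.79, 1.505, 0.89 and 1.20 CPM in the 2-wk-old mice 1 to 4 and *Myh6* at 17.9, 9.86, 10.2 and 6.48 CPM. The red blood cell genes given above were likewise high in mice 1 and 2 and low in mice 3 and 4, and the part of either list in the *Mybphl* counts was not tested.

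*Obsl1* (ENSMUSG00000026211, chr1:75485825-75506486) was at 52.6, 131, 79.3 and 58.9 CPM at E18.5, at 176, 142, 179 and 156 CPM at 2 wks and at 109, 92.8, 92.8 and 128 CPM at 7 wks. The 2-wk-old mice lay above all others, and the E18.5 mouse 2 lay above all 7-wk-old mice. It rose 2.03-fold to 2 wks (log2 fold change 1.02, SE 0.25, edgeR adjusted p = 0.00231). The difference between E18.5 and 7 wks was within the spread between mice (log2 fold change 0.39, SE 0.24, edgeR adjusted p = 0.162), but was 0.73 without E18.5 mouse 2 (edgeR adjusted p = 0.0025). Both values depended on the processing. With total counts the log2 fold change was 0.087 to 2 wks (edgeR adjusted p = 0.76) and -0.89 to 7 wks (edgeR adjusted p = 0.00462). *Obsl1* has the highest exonic GC content of the 9 genes, 59.3%, and after removing the GC trend library by library the values were -0.26 (edgeR adjusted p = 0.194) and -0.42 (edgeR adjusted p = 0.0398). From 2 to 7 wks all 16 pairs of mice had the lower level at 7 wks, with a log2 fold change of -0.63 (SE 0.24), -0.98 with total counts and -0.16 after removal of the GC trend. Its exons share 1099 bases with *Inha* and 1171 with *Tmem198* on the other strand. *Inha* had 480 to 1607 reads per library at E18.5, 1825 to 4757 in the 2-wk-old mice and 727 to 1292 in the 7-wk-old mice, and *Tmem198* had 5 to 43.

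**Figure D4:**
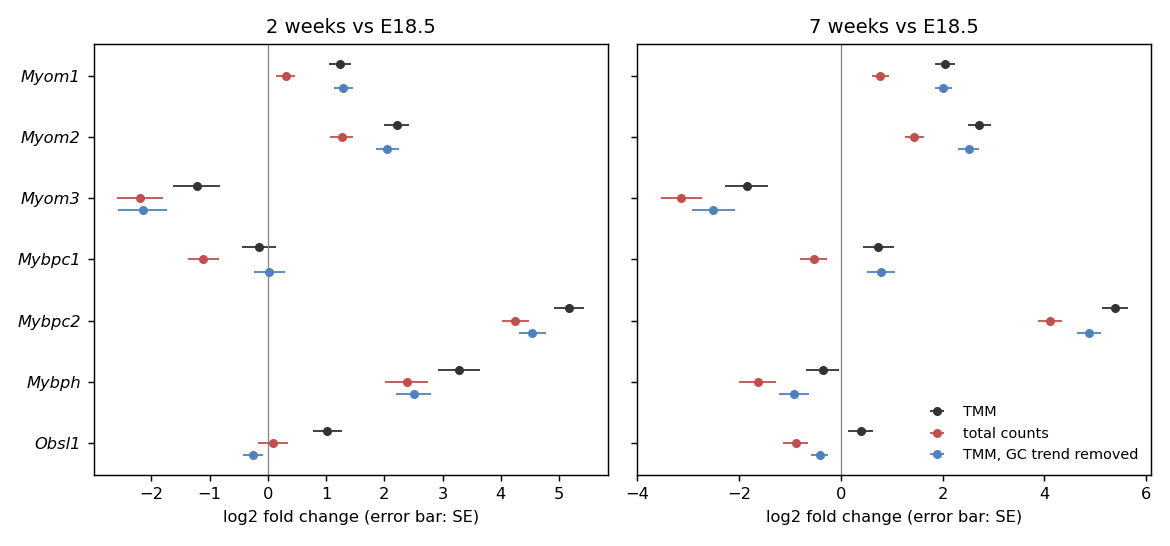
Log2 fold change of 7 genes against E18.5, with its SE, at 2 wks (left) and 7 wks (right), under TMM scaling, total counts, or TMM after each library was freed of its GC trend. *Myom2* and *Mybpc2* stay above 0 and *Myom3* below 0 with each of the 3, while *Obsl1* and *Mybpc1* change sign between settings, *Obsl1* with the GC trend removed and, at 7 wks, with total counts, and *Mybpc1* with the GC trend removed at 2 wks and with total counts at 7 wks. *Mybph* is drawn as a description.

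Among the 6 genes other than *Mybph* with over 1000 reads in every library (*Myom1*, *Myom2*, *Myom3*, *Mybpc1*, *Mybpc2* and *Obsl1*), 5 changed from E18.5 to 2 wks, 4 higher and 1 lower, where 65.7% of all tested genes changed, 31.5% higher and 34.2% lower. From E18.5 to 7 wks 5 of the 6 changed, 4 higher and 1 lower, where 71.4% of all genes did, 34.3% higher and 37.1% lower. The 6 had a median log2 fold change of 1.13 and 1.39, against -0.092 and -0.088 over all genes. Scaled to total counts, 4 of the 6 passed the test to 2 wks, of which 2 rose and 2 fell. In that setting 2550 of the 19276 genes rose and 11923 fell. To 7 wks 5 of the 6 passed it, of which 3 rose and 2 fell, where 2291 of all genes rose and 13297 fell. The medians of the 6 were 0.19 and 0.12 against -1.02 and -1.37 over all genes. Both comparisons share the E18.5 libraries. From 2 to 7 wks, the interval that was known when the genes were chosen, 2 of the 6 were past the threshold, where 27.5% of all genes were, which is a description only.

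The partners of these proteins were described from a list of 17 genes of the M-band, the titin kinase region and myosin folding. This list and that of the 3M complex below were chosen with earlier results of these data known. From E18.5 to 2 wks 14 of the 17 rose and 1 fell, where 31.5% of all genes rose and 34.2% fell, and the 17 had a median log2 fold change of 1.98. *Trim54*, which encodes the ubiquitin ligase MURF3, rose by 4.02 on the log2 scale (SE 0.41, edgeR adjusted p = 2.59e-06) and *Ckm*, the muscle creatine kinase found at the M-band, by 3.86 (SE 0.37). The titin gene *Ttn* rose by 1.41 (SE 0.26, edgeR adjusted p = 0.000289). The gene that fell was *Fhl2*, which encodes a LIM protein that binds titin, from 15.01 ± 3.87 to 4.79 ± 1.42 CPM (SD, n = 4), a log2 fold change of -1.65 (edgeR adjusted p = 7.51e-05). *Trim55* (-0.12) and *Nbr1* (-0.16) did not pass the test. With total counts 11 of the 17 rose and 3 fell, with a median of 1.03. In that setting 2550 of the 19276 genes rose and 11923 fell, with a median of -1.02.

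From E18.5 to 7 wks 15 of the 17 rose and 1 fell, where 34.3% of all genes rose and 37.1% fell, and the 17 had a median log2 fold change of 2.38. With total counts 13 of the 17 rose and 3 fell, with a median of 1.101. In that setting 2291 of the 19276 genes rose and 13297 fell, with a median of -1.37. With each library left out in turn 15 to 17 of the 17 were called, and 13244 to 13928 of all genes. *Trim54* (4.58) and *Cmya5* (4.29), which encodes the M-band and costamere protein myospryn, rose most, and *Fhl2* fell by 2.90. *Smyd1* and *Unc45b*, whose products help fold and assemble myosin, rose by 2.02 and 2.38. Between 2 and 7 wks 10 of the 17 were higher and 1 lower past the threshold, where 13.5% and 13.9% of all genes were. With total counts 3 of the 17 were higher and 1 lower, where 948 and 5392 of the 19276 genes were. Without 2-wk-old mouse 1 the number of the 17 past the threshold dropped from 11 to 6. Without 2-wk-old mouse 2 it was 7. The number of all genes past it was 5296, and 3472 to 6145 with a library left out.

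The list for the 3M complex held *Cul7* and *Ccdc8*, whose products are named above as parts of it, and *Fbxw8*. Of these 3 genes 1 fell to 2 wks and 2 fell to 7 wks, where 34.2% and 37.1% of all tested genes fell. *Ccdc8* fell from 50.3 ± 19.3 CPM at E18.5 to 13.8 ± 3.49 at 2 wks and 5.63 ± 1.05 at 7 wks (SD, n = 4), log2 fold changes of -1.87 and -3.16 against E18.5 (edgeR adjusted p = 2.62e-05 and 2.27e-07). *Cul7* was at 39.8 ± 21.9, 38.3 ± 9.84 and 14.2 ± 2.81 CPM (SD, n = 4) and fell by 1.49 to 7 wks (edgeR adjusted p = 0.000824), with no difference past the threshold to 2 wks (-0.057). *Fbxw8* did not pass the test in either comparison (-0.16 and -0.088). All 3 were lower at both ages when scaled to total counts, as were 11923 and 13297 of the 19276 genes tested, and also after removal of the GC trend, as were 7715 and 8240 genes. No test of the difference between these genes and *Obsl1* was made.

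**Figure D5:**
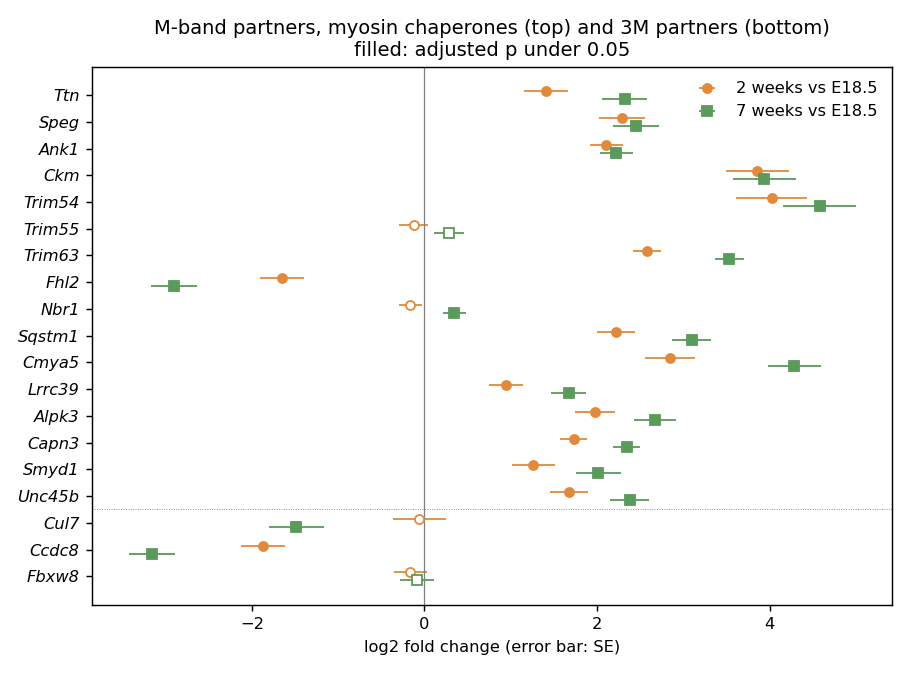
Log2 fold change against E18.5 with its SE for 16 of the 17 M-band partner and myosin chaperone genes (above the dotted line) and the 3 genes listed for the 3M complex (below it), at 2 wks (circles) and 7 wks (squares). Filled symbols passed an adjusted p of 0.05. *Fhl2*, *Ccdc8*, *Cul7* and *Fbxw8* lie below 0 at both ages, of which *Fhl2* and *Ccdc8* alone are filled at both. *Trim54* has the highest value at both ages.

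Other genes whose course over the 12 libraries was most like that of a member were listed by the root mean square difference of centred log2 CPM. For *Mybpc2* they were *Extl1* (0.19), *Actn3* (0.24), the fast alpha-actinin of the Z-disc, and *Kcnc4* (0.29), against a median of 2.41 over 8802 genes. *Actn3* was at 138 ± 57.4 CPM at E18.5, 5385 ± 690 in the 2-wk-old mice and 7097 ± 1289 in the 7-wk-old mice (SD, n = 4). For *Myom1* they were *Spop* (0.14), *Fsd2* (0.14) and *Kif13a* (0.16), and for *Myom2* *Pla2g4e* (0.16), *Prss23* (0.19) and *Hrc* (0.20), the last a calcium-binding protein of the sarcoplasmic reticulum. For *Mybpc1* they were *Crybg3* (0.22), *Pdlim5* (0.23) and *Dusp22* (0.24), and for *Obsl1* *Il4ra* (0.17), *Ptprs* (0.18) and *Acap3* (0.18). For *Myom3* the nearest were further away, *Ttc9* (0.43), *Gga2* (0.45) and *Spag5* (0.45). Of the genes with few reads, *Mybpc3* was nearest to *Usp11* (0.55), *Myl4* (0.62), the myosin light chain of embryonic muscle and atrium, and *Acsl3* (0.63).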

How the data were processed

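RNA of TA muscles of 12 WT mice was sequenced from polyA-selected stranded libraries as paired ends. The authors deposited raw read counts per Ensembl gene, without normalization and without pooling of replicates. The submitters' processing notes name bcl2fastq 2.17.1.14, cutadapt 1.10, STAR 2.5.3a and HTSeq 0.6.1p1 and the build mm10, while the methods name GRCm39. The annotation and strand setting of the counting are not given in the sources used here. Coordinates are those of RefSeq on GRCm38.p6. Symbols, exon lengths and GC content come from GENCODE vM39 on GRCm39, in which 51477 of 55450 identifiers were found. The other 3973 took 0.0394% of the counts.

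Counts were tested with edgeR 4.0.16 (R 4.3.3, limma 3.58.1), with TMM scaling, filterByExpr and the quasi-likelihood test in 1 fit of 12 libraries with age as the only term, Benjamini-Hochberg adjustment over 19276 genes and a threshold of 0.05. Log2 ratios of counts per kb were compared with two-sided exact permutation tests (scipy 1.17.1), and 8 tests entered the adjustment, of which the 2 of *Mybpc3*, which had libraries at 0 and needed 0.5 added reads, are not given. Log2 CPM values used for likeness had a prior count of 2 and a mean of at least 3. Libraries of 63018968 to 123449246 counted reads keep counting error small for all genes but *Mybpc3* and *Mybphl*. Nothing says that mice of an age came from separate litters. No library was a copy of another, since the chi-square of the counts over its degrees of freedom was 34.3 to 577 in the 18 pairs within an age. The procedure was tested on simulated data in which few genes changed. That did not test the scaling where most genes differ, as between E18.5 and the later ages here.

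The 9 genes, the partner lists and the rule for naming genes (the 9, the 3 largest rises and falls of each list and the 3 genes most alike to each) were chosen with earlier results of these data known. Some genes that this rule picks are not reported here. Genes named beside them to describe the mice or an overlap were chosen after their values were seen. Alternatives were total counts, upper-quartile factors, TMM without the 20 most abundant and 37 mitochondrial genes, DESeq2 1.42.0, 2 other filters, only the 8 libraries compared, a replicate block, removal of each library's trend over exonic GC content (a spline), each library left out, another gene length and, for the ratios, 0.5 reads added to every gene.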

Additional observations from a re-analysis of the deposited data

Results flagged for a closer look

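For each of the 9 genes the 4 libraries of each age were compared, 27 sets in all, and in 2 of them a single mouse lay far from the rest. About 1 set in 20 is picked out by chance. *Mybpc2* in the 2-wk-old mouse 3 was at 7489 CPM against 5614 to 5882 CPM in mice 1, 2 and 4. *Mybpc3* in the 2-wk-old mouse 2 was at 0.0206 CPM, which stands for 2 reads, against 0 in mice 1, 3 and 4. With 3 libraries at 0, any read in the other one is picked out, so the *Mybpc3* value says nothing beyond its 2 reads.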

How the results depend on the processing

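With each library left out in turn, 4 to 5 of the 6 abundant genes were called from E18.5 to 2 wks and 4 to 5 from E18.5 to 7 wks. Over all genes the numbers were 11810 to 13199 and 13244 to 13928. In the interval from 2 to 7 wks, a description only, 2 of the 6 were past the threshold. The number was 1 to 3 with a library left out, 4 with DESeq2 and 1 with the replicate block. Of all genes 6098 were past it with DESeq2 and 5149 with the replicate block. Of the 17 partner genes, 6 to 13 were past the threshold in this interval with a library left out (11 with all libraries, 4 with total counts), and the number of all genes was 3472 to 6145, with 1548 to 3097 higher. With total counts, 2550 genes were higher and 11923 lower from E18.5 to 2 wks, 2291 and 13297 from E18.5 to 7 wks and 948 and 5392 from 2 to 7 wks, against 6074 and 6594, 6610 and 7145, and 2609 and 2687 with TMM. All 3 genes listed for the 3M complex were called to 2 wks with total counts, and again 3 after removal of the GC trend, against 1. Of all genes 14473 and 12886 were called in these settings, against 12668. The sign turned for *Mybpc1* to 7 wks with total counts (-0.53), for *Mybpc1* to 2 wks with the GC trend removed (0.027) and without 2-wk-old mouse 1 (0.067), and for *Obsl1* to 7 wks with total counts (-0.89) and, after removal of the GC trend, at both ages (-0.26 and -0.42). The cause was not tested. All log2 ratios within the families kept their direction and side of the threshold with added reads. They moved by less than the spread between mice with any library left out, where no test was run. Another gene length shifts a log2 ratio alike in every library, so it cannot change these differences and is no check of them. Libraries with the same replicate number deviated together little across ages (correlations -0.14 to 0.28, over 0.1 in 2 of 12 pairs). Libraries with unlike numbers were not compared, so this does not settle whether the numbers pair the mice. With the replicate block 5 of the 6 abundant genes were called to 2 wks and 4 to 7 wks, where *Mybpc1* (log2 fold change 0.75, adjusted p = 0.0607, edgeR) was lost. Of all genes 12470 and 13611 were called with the block. The few reads on *Mybpc3* and *Mybphl* limit what can be said of either gene.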
